A study of Homo sapiens and Mus musculus with 4 samples.

Results

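The genes described here carry the calcium signal of lymphocytes to the nucleus: NFATC1, NFATC2, NFATC3, PPP3CA, PPP3CB, PPP3CC, ORAI1, STIM1, ITPR1 and RCAN1, with the mouse genes of the same symbols. They were chosen by name, as a pathway, in the human and in the mouse rows of 1 table, with earlier results of these data known. Of the 20 rows sought, 10 per species, 19 were matched among the 60736 genes of the table, 9 of 32738 human and 10 of 27998 mouse genes. Human ORAI1 was not matched by the annotation used and was not analysed here, while mouse Orai1 was.

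The table holds bulk RNA sequencing of 4 established lymphoid cell lines, made as a baseline for single-cell methods. Jurkat and TALL104 are human T-cell leukaemia lines that the study describes as CD4 and CD8 T cells, and TALL104 was grown with interleukin-2. The mouse lines are EL4, a T-cell lymphoma listed as CD4 T cells, and IVA12, listed as B cells. Growth media differed, with RPMI for Jurkat and EL4, DMEM for IVA12 and IMDM for TALL104, so medium and line cannot be told apart. The labels name neither a stimulus nor a genetic change. All of them are long-cultured cell lines, and each was sequenced as 1 library.

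With 1 library per line, the data hold no measure of the spread between cultures, and differences were not tested. The unit is FPKM, fragments per kilobase of gene scaled to the reads of the library, which allows levels of different genes to be compared per length. The depth was recovered from the FPKM values and the annotated exon lengths, as the whole number that genes gave most often when taken as 1 read. It came to 34783047 reads for Jurkat, 28345951 for TALL104, 32149319 for EL4 and 25286728 for IVA12. Each interval is a 95% interval from the recovered reads. Reads are not independent molecules, so the intervals cover counting error only, and 0 reads in a library allow up to 3. Where all reads of a gene share a common factor, the recovered reads are a lower bound and the interval is too wide. Among the members this may hold wherever the recovered length fell well below the annotated exon length. For ITPR1 and Ppp3cc the recovered lengths were 6451 and 974 bases against 32120 and 2985 annotated exon bases. For Stim1 and Nfatc3 they were 3597 and 6014 against 10371 and 11726, and for STIM1 and Ppp3cb 6811 and 6018 against 12040 and 8809. Whether counting used the strand is not given in the sources used here, so that PPP3CB and PPP3CB-AS1, STIM1 and STIM1-AS1, and NFATC3 and ESRP2, which overlap on opposite strands, could not be told apart. A lower value can stand for fewer cells with a transcript or for less RNA per cell, which cannot be told apart in bulk RNA.

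The markers of the labelled lineages were read first. All 8 T-lineage markers were detected in both human lines, at a summed level of 1002 FPKM in Jurkat and 873 FPKM in TALL104, and 7 of the 8 were detected in EL4, at a sum of 632 FPKM. In IVA12 the T-lineage sum was 12.1 FPKM, of which Cd2 held 9.99 FPKM, and the sum of the 6 antibody secretion markers was 2134 FPKM. The B-lineage sum was 16.8 FPKM in Jurkat and 29.8 FPKM in TALL104, mostly from CD79A, and 2.34 FPKM in EL4. IVA12 did not carry the whole B-lineage list. Cd79b had 163 FPKM, Ms4a1 46.5 FPKM and Blnk 39.6 FPKM there, but Cd79a had 0.0543 FPKM and Pax5 0.156 FPKM. The 6 myeloid markers summed to between 0.130 and 1.65 FPKM in the 4 libraries, and the 5 stromal and erythroid markers to at most 0.362 FPKM.

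In the pathway, an activated antigen receptor leads phospholipase C to make inositol trisphosphate, which opens IP3 receptors in the endoplasmic reticulum. STIM proteins sense the emptied store and open ORAI channels in the plasma membrane. The calcium that enters binds calmodulin, which activates calcineurin, a phosphatase of a catalytic and a regulatory chain. Calcineurin removes phosphates from the cytoplasmic NFAT proteins, which then enter the nucleus, and it is the target of ciclosporin and tacrolimus.

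All 9 human members were detected at 1 FPKM or more in both human lines, with a range from 2.43 to 21.8 FPKM in Jurkat and from 2.54 to 40.0 FPKM in TALL104. Of the mouse members, 9 of 10 reached 1 FPKM in EL4 and 10 of 10 in IVA12, and Nfatc1 in EL4 was the exception. The median level of the members was 6.31 FPKM for Jurkat, 15.5 FPKM for TALL104, 7.23 FPKM for EL4 and 9.17 FPKM for IVA12. NFATC3 held the first place in TALL104, EL4 and IVA12 and the second place, after STIM1, in Jurkat.

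**Figure D1:**
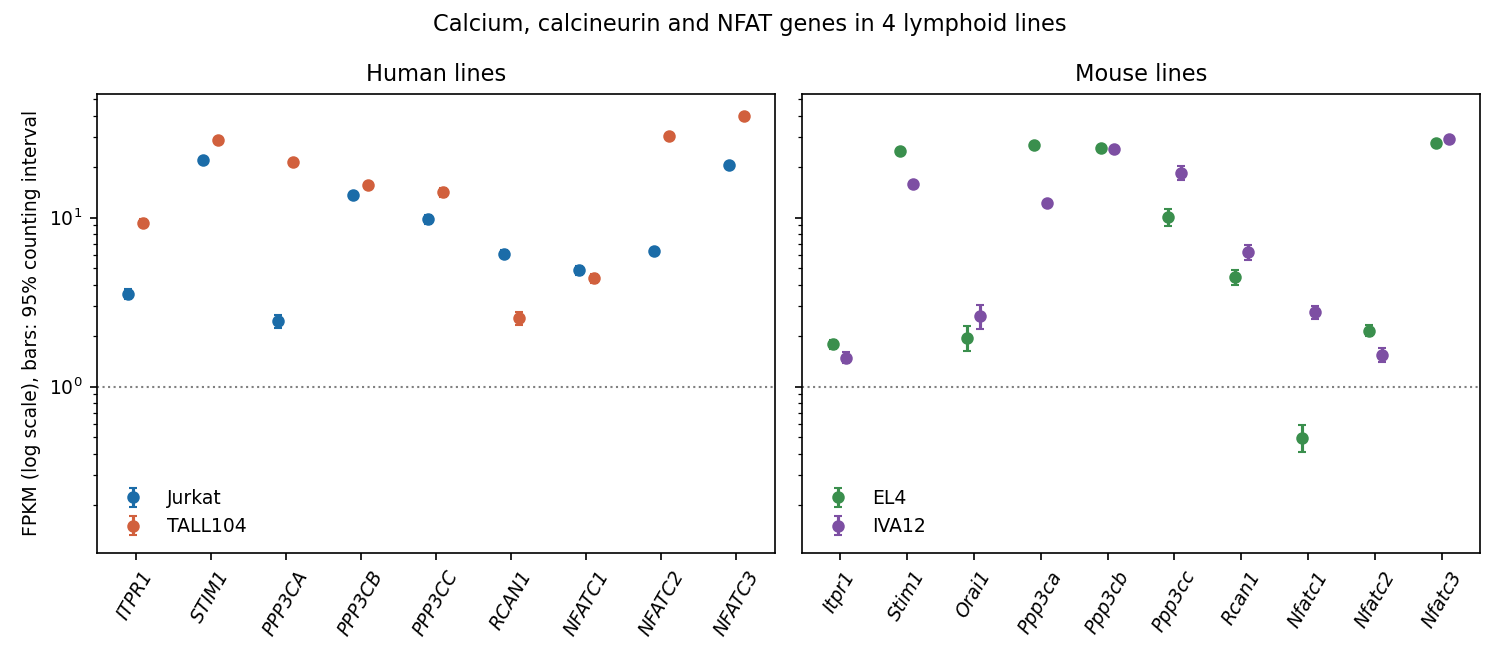
Level of each member in FPKM on a log axis, for the human lines (left) and the mouse lines (right), 1 library per line. Points are the deposited values, bars are 95% counting intervals, and the dotted line marks 1 FPKM. PPP3CA and NFATC2 lay far apart in the human lines, and Nfatc1 in the mouse lines.

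The first comparison asked how the members differed between Jurkat and TALL104. On the scale of FPKM + 1, 5 of the 9 members differed by more than 1.5-fold, and 4 of these were higher in TALL104 and 1 in Jurkat. Over all human genes 25.3% passed the same threshold, and over the 11375 genes with a mean of at least 1 FPKM over both lines, a filter that all 9 members passed, 61.0% did. The share of members past the threshold, 55.6%, was thus near that of the expressed genes. The 4 toward TALL104 were PPP3CA, NFATC2, ITPR1 and NFATC3, and the 1 toward Jurkat was RCAN1. The median log2 ratio of the members, Jurkat over TALL104, was -0.49, against 0.10 over the genes with a mean of at least 1 FPKM. By direction, 33.3% of those genes passed toward Jurkat and 27.7% toward TALL104, and 13.8% and 11.4% of all human genes did.

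The second comparison asked the same of EL4 and IVA12. Of the 10 mouse members, 4 differed by more than 1.5-fold, Ppp3ca and Stim1 toward EL4 and Nfatc1 and Ppp3cc toward IVA12. The background was 21.0% of all mouse genes and 48.3% of the 10237 genes with a mean of at least 1 FPKM, which all 10 members passed. The share of members, 40%, was somewhat below that of the expressed genes. By direction, 23.2% of those genes passed toward EL4 and 25.1% toward IVA12, and 9.75% and 11.2% of all mouse genes did. The median log2 ratio of the members, EL4 over IVA12, was -0.03, as over those genes, and the median absolute log2 ratio was 0.36 against 0.56.

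**Figure D2:**
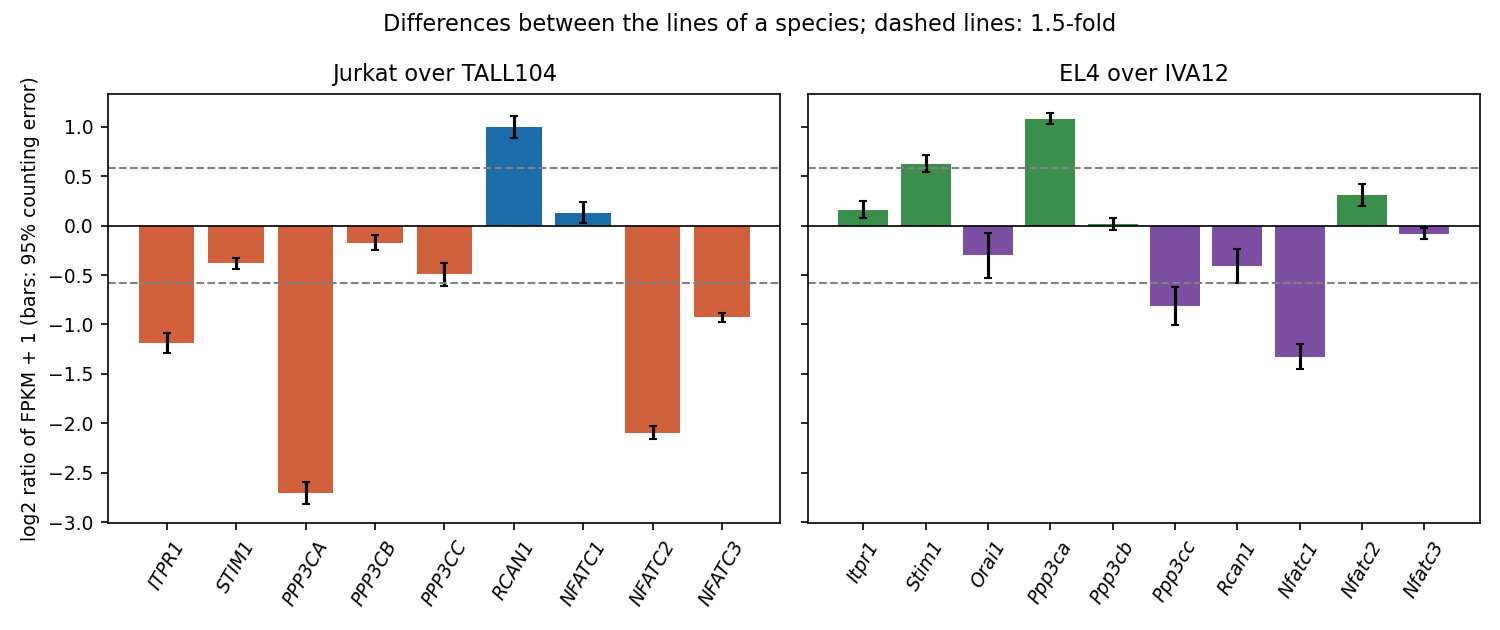
The log2 ratio of FPKM + 1 between the lines of a species, Jurkat over TALL104 (left) and EL4 over IVA12 (right). Bars are coloured by the line with the higher value, error bars are 95% counting errors of the ratio, and dashed lines mark 1.5-fold. The human bars reach from -2.70 for PPP3CA to 1.001 for RCAN1, and the mouse bars from -1.33 for Nfatc1 to 1.08 for Ppp3ca.

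ITPR1 encodes the type 1 IP3 receptor, the calcium release channel of the endoplasmic reticulum (ENSG00000150995, hg19 chromosome 3, 4535029 to 4889190; Itpr1 is ENSMUSG00000030102, mm10 chromosome 6, 108213096 to 108551109). ITPR1 stood at 3.52 FPKM in Jurkat (interval 3.28 to 3.78) and at 9.31 FPKM in TALL104 (8.87 to 9.76). The FPKM ratio of TALL104 over Jurkat was 2.64 (2.43 to 2.88), and the log2 ratio on FPKM + 1 was -1.19. Itpr1 stood at 1.78 FPKM in EL4 (1.67 to 1.89) and at 1.48 FPKM in IVA12 (1.37 to 1.596), a ratio of 1.20 (1.09 to 1.32) that lay within 1.5-fold. The mouse gene was among the low members in both lines.

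Per length, ITPR1 was the lowest of the 3 IP3 receptors in each library. Of their summed FPKM it held 14.0% in Jurkat (13.2% to 14.9%) and 17.4% in TALL104 (16.7% to 18.2%), and Itpr1 held 5.53% in EL4 (5.20% to 5.87%) and 5.20% in IVA12 (4.81% to 5.59%). In IVA12 the interval of the type 1 receptor overlapped with that of the type 2 receptor, at 6.01% (5.55% to 6.47%), and by recovered reads, not divided by length, their order turned, with 9.69% and 9.05%. The type 3 receptor held 88.8% in IVA12 against 45.1% in EL4. Itpr2 had 15.8 FPKM in EL4 against 1.71 FPKM in IVA12, and Itpr3 had 14.5 and 25.3 FPKM. In the human lines ITPR2 and ITPR3 were both higher in TALL104, at 10.01 and 22.5 FPKM for ITPR2 and at 11.6 and 21.5 FPKM for ITPR3 in Jurkat and TALL104.

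STIM1 encodes the main calcium sensor of the store (ENSG00000167323, hg19 chromosome 11, 3875757 to 4114440; Stim1 is ENSMUSG00000030987, mm10 chromosome 7, 102267806 to 102437319). STIM1 stood at 21.8 FPKM in Jurkat (21.3 to 22.5) and at 28.8 FPKM in TALL104 (28.0 to 29.5). It was the highest member in Jurkat, and the 2 lines differed by 1.32-fold (1.27 to 1.37), within the 1.5-fold threshold. Stim1 stood at 24.8 FPKM in EL4 (23.9 to 25.7) and at 15.7 FPKM in IVA12 (14.9 to 16.6), a ratio of 1.58 (1.48 to 1.68) that passed it, with a log2 ratio of 0.62.

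The second sensor, STIM2, which responds to smaller losses of store calcium, differed more than STIM1 in both species. STIM2 had 6.14 FPKM in Jurkat and 13.95 FPKM in TALL104, and Stim2 had 17.6 FPKM in EL4 against 3.70 FPKM in IVA12, a ratio of 4.76. STIM1 held 78.1% of the FPKM of both sensors in Jurkat (77.1% to 79.1%) and 67.3% in TALL104 (66.3% to 68.3%), and Stim1 held 58.5% in EL4 (57.2% to 59.7%) and 81.0% in IVA12 (79.4% to 82.6%). Per length, STIM1 was the larger part in each of the 4 libraries, and least so in EL4. By recovered reads, which are not divided by length, Stim1 held 49.7% in EL4 and Stim2 50.3%, so that the order turned there. The reads of Stim1 may be a lower bound, however, so this turn is uncertain.

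Orai1 encodes the pore of the store-operated channel (ENSMUSG00000049686, mm10 chromosome 5, 123015074 to 123030456). It stood at 1.92 FPKM in EL4 (1.62 to 2.27) and at 2.60 FPKM in IVA12 (2.20 to 3.05), and these intervals overlapped. The ratio of IVA12 over EL4 was 1.35 (1.07 to 1.71), within 1.5-fold. Its relative Orai3 was the highest of the family in both mouse lines, at 11.1 and 14.5 FPKM, and Orai1 held 11.8% of the family sum in EL4 (9.98% to 13.6%) and 13.9% in IVA12 (11.9% to 15.99%). Of the human genes, ORAI2 had 9.50 FPKM in Jurkat and 13.0 FPKM in TALL104. ORAI3 stood at 0.674 FPKM in Jurkat (0.517 to 0.865) and at 11.5 FPKM in TALL104 (10.8 to 12.3), a 17.1-fold difference (13.2 to 22.5). Of the 100-base windows of ORAI3 transcripts, 44.01% were also found in an overlapping annotated gene, so its counts may have been split between both.

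The calcineurin catalytic chain is encoded by 3 genes, of which the alpha and beta forms are found in most tissues and the gamma form is best known from testis. PPP3CA, the alpha chain (ENSG00000138814, hg19 chromosome 4, 101944566 to 102269435), stood at 2.43 FPKM in Jurkat (2.21 to 2.66) and at 21.3 FPKM in TALL104 (20.6 to 22.1). It was the lowest member in Jurkat and the fourth highest in TALL104. The ratio of TALL104 over Jurkat was 8.79 (7.96 to 9.74), with a log2 ratio of -2.70 on FPKM + 1. This was larger than the absolute log2 ratio of 92.1% of the human genes with a mean of at least 1 FPKM. No 100-base window of its transcripts was shared with another annotated gene of either species.

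Ppp3ca (ENSMUSG00000028161, mm10 chromosome 3, 136670124 to 136937727) stood at 26.8 FPKM in EL4 (26.2 to 27.4) and at 12.1 FPKM in IVA12 (11.7 to 12.6). The ratio of EL4 over IVA12 was 2.21 (2.12 to 2.30), the largest toward EL4 among the mouse members. In both pairs the alpha chain was among the 2 members with the largest absolute log2 ratio.

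PPP3CB, the beta chain (ENSG00000107758, hg19 chromosome 10, 75196191 to 75255782), varied little. It stood at 13.6 FPKM in Jurkat (13.1 to 14.2) and at 15.5 FPKM in TALL104 (14.9 to 16.1), a ratio of TALL104 over Jurkat of 1.14 (1.07 to 1.20). Ppp3cb (ENSMUSG00000021816, mm10 chromosome 14, 20499364 to 20546573) stood at 25.7 FPKM in EL4 (25.0 to 26.5) and at 25.4 FPKM in IVA12 (24.6 to 26.2). The mouse ratio, 1.01 (0.972 to 1.06), was the only one of the 19 whose counting interval held 1.

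PPP3CC, the gamma chain (ENSG00000120910, hg19 chromosome 8, 22298332 to 22398655), stood at 9.74 FPKM in Jurkat (9.14 to 10.4) and at 14.1 FPKM in TALL104 (13.3 to 15.0). The ratio of TALL104 over Jurkat was 1.45 (1.33 to 1.58), and its log2 ratio on FPKM + 1, -0.49, lay within 1.5-fold. After scaling the lines by the median ratio of the genes detected in both, it became -0.60 and passed the threshold. Ppp3cc (ENSMUSG00000022092, mm10 chromosome 14, 70217865 to 70289471) stood at 10.03 FPKM in EL4 (8.95 to 11.2) and at 18.4 FPKM in IVA12 (16.7 to 20.2), a ratio of IVA12 over EL4 of 1.83 (1.58 to 2.12). The alpha and the gamma chain thus differed in opposite directions between the mouse lines.

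The make-up of the catalytic chains differed from line to line. In Jurkat the beta chain held 52.8% of their summed FPKM (51.2% to 54.5%), the gamma chain 37.8% (36.1% to 39.5%) and the alpha chain 9.41% (8.56% to 10.3%). In TALL104 the alpha chain led with 41.9% (40.7% to 43.1%), followed by 30.4% of beta and 27.7% of gamma. In EL4 the alpha chain, at 42.8% (41.8% to 43.9%), and the beta chain, at 41.1% (40.1% to 42.2%), had intervals that overlapped, with 16.02% of gamma. In IVA12 the beta chain led with 45.4% (43.8% to 47.0%), and the gamma chain, at 32.9% (30.8% to 34.99%), stood above the alpha chain, at 21.7% (20.7% to 22.6%). Per length, the alpha chain was therefore the last of the 3 in Jurkat and IVA12, and the first in TALL104. By recovered reads, not divided by length, it held 41.5% in IVA12 and the gamma chain 6.14%, so that alpha was not the last there, although the reads of Ppp3cc may be a lower bound. In Jurkat it held 11.2% of the reads and remained last.

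The regulatory chain gene PPP3R1 was higher in Jurkat, by 1.43-fold and so within the threshold, whereas the catalytic sum was higher in TALL104. PPP3R1 had 34.6 FPKM in Jurkat and 24.3 FPKM in TALL104, with 12.8% of its 100-base windows held by other annotated genes, while the catalytic genes summed to 25.8 and 50.9 FPKM. Per FPKM of PPP3R1, the catalytic sum was 0.745 in Jurkat and 2.10 in TALL104. Mouse Ppp3r1 had 45.1 and 49.4 FPKM, and the same quotient was 1.39 in EL4 and 1.13 in IVA12. The testis form of the regulatory chain, PPP3R2, had 0 reads in both human lines, and so had Ppp3r2 in both mouse lines.

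**Figure D3:**
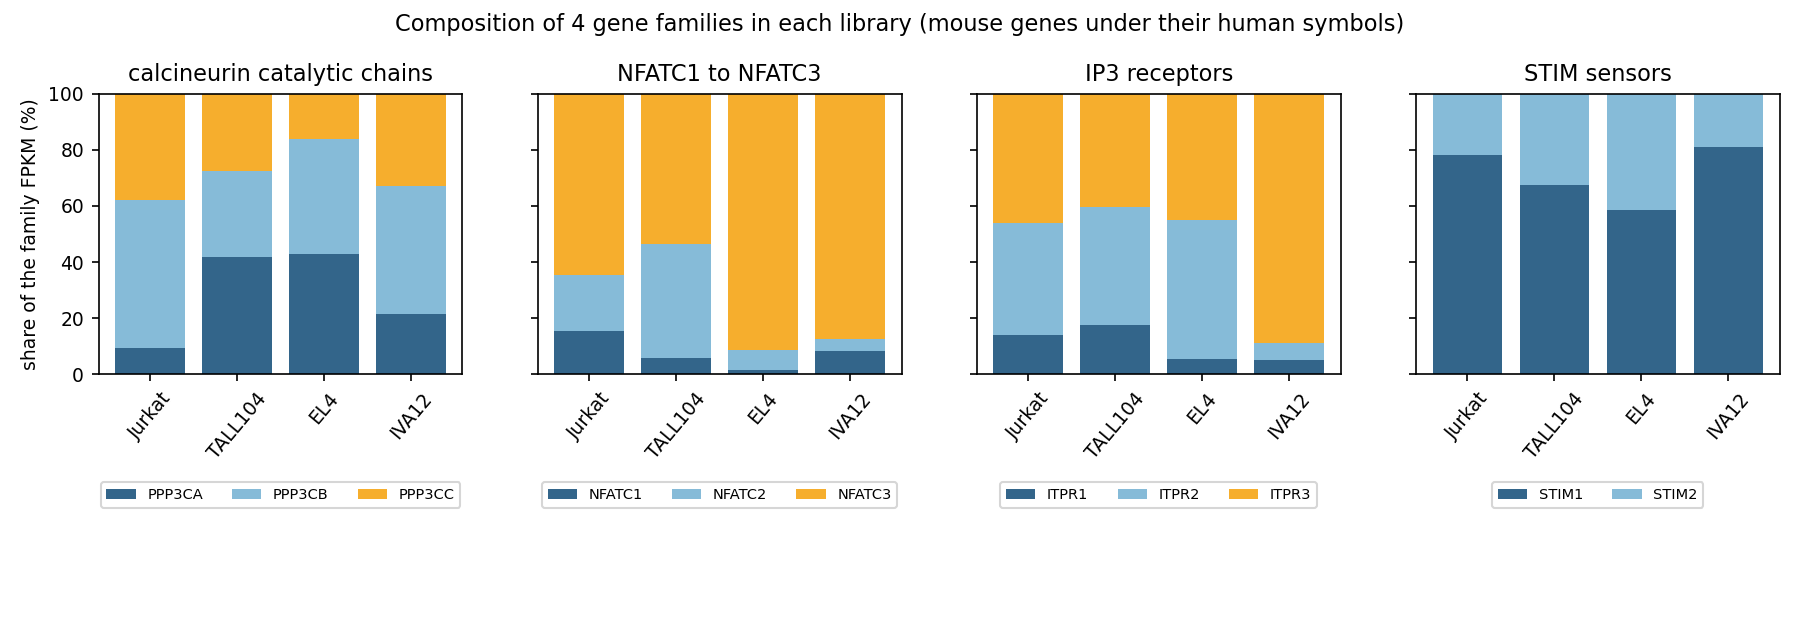
Share of each gene in the summed FPKM of its family, in percent, for the calcineurin catalytic chains, NFATC1 to NFATC3, the IP3 receptors and the STIM sensors. Each stacked bar is 1 library, with the mouse genes under their human symbols. The alpha chain PPP3CA runs from 9.41% in Jurkat to 42.8% in EL4, and NFATC3 takes over 50% of its family in each library.

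RCAN1 encodes an inhibitor of calcineurin whose transcription from an inner promoter is a textbook response to calcineurin and NFAT (ENSG00000159200, hg19 chromosome 21, 35885440 to 35987412; Rcan1 is ENSMUSG00000022951, mm10 chromosome 16, 92391953 to 92470867). RCAN1 stood at 6.09 FPKM in Jurkat (5.78 to 6.41) and at 2.54 FPKM in TALL104 (2.32 to 2.78). It was the only human member past 1.5-fold toward Jurkat, with a ratio of 2.40 (2.16 to 2.66) and a log2 ratio of 1.001. Rcan1 stood at 4.43 FPKM in EL4 (3.98 to 4.92) and at 6.22 FPKM in IVA12 (5.62 to 6.86), a ratio of IVA12 over EL4 of 1.40 (1.21 to 1.62). In the human lines RCAN1 thus stood opposite to PPP3CA, NFATC2, NFATC3 and ITPR1, and to its relative RCAN3, which had 10.8 FPKM in Jurkat and 57.5 FPKM in TALL104. RCAN1 held 36.0% of the summed FPKM of RCAN1, RCAN2 and RCAN3 in Jurkat and 4.24% in TALL104. An overlapping annotated gene held 10.3% of the 100-base windows of RCAN1 transcripts.

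The FPKM of RCAN1 sums all its transcripts, so the values do not tell which start site was used. RefSeq lists 6 start sites, and windows from 250 bases before to 50 bases after each one were searched on both strands for the NFAT core GGAAA, which reads TTTCC where it lies on the other strand. Of all 35116 human windows of this length, 61.2% held at least 1 core and 2.96% held 4 or more. The outermost RCAN1 window held 0 cores and the fourth, which lies 88291 bases further into the gene, held 5. Both are shown with the cores in capitals, since the second is the window with the most cores among the member windows used. They are from GRCh38.p14, minus strand, chr21:34615064-34615363 and chr21:34526773-34527072, and are printed 5′ to 3′.
RCAN1 outer start: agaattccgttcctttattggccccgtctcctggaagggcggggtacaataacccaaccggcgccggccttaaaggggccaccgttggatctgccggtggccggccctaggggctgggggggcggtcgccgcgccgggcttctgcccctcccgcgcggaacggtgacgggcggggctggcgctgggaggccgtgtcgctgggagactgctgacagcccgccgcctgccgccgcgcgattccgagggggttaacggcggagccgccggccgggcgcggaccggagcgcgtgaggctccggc
RCAN1 inner start: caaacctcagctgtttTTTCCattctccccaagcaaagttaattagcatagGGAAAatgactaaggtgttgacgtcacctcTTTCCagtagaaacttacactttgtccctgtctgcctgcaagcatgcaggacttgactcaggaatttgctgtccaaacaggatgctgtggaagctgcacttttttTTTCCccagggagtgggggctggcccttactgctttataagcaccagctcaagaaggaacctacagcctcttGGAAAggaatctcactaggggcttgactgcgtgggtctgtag
The match describes these letters only, and no value in the table bears on whether the sites are bound.

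NFATC1, which is induced in activated lymphocytes (ENSG00000131196, hg19 chromosome 18, 77155856 to 77289325), stood at 4.87 FPKM in Jurkat (4.60 to 5.16) and at 4.36 FPKM in TALL104 (4.07 to 4.66). The ratio, 1.12 (1.02 to 1.22), was the smallest difference among the human members. Nfatc1 (ENSMUSG00000033016, mm10 chromosome 18, 80606205 to 80713071) stood at 0.494 FPKM in EL4 (0.409 to 0.591) and at 2.75 FPKM in IVA12 (2.51 to 2.99). The ratio of IVA12 over EL4 was 5.56 (4.54 to 6.85), the largest of the mouse members, and larger on the log2 scale of FPKM + 1 than that of 77.7% of the mouse genes with a mean of at least 1 FPKM. In EL4 it was the lowest member.

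NFATC2, the form long known from resting T cells (ENSG00000101096, hg19 chromosome 20, 50003494 to 50179370), stood at 6.31 FPKM in Jurkat (6.02 to 6.61) and at 30.2 FPKM in TALL104 (29.5 to 30.9). The ratio of TALL104 over Jurkat was 4.79 (4.55 to 5.04), with a log2 ratio of -2.09, and it was larger than for 86.4% of the human genes with a mean of at least 1 FPKM. In TALL104 it ranked second, where its interval overlapped with that of STIM1. Nfatc2 (ENSMUSG00000027544, mm10 chromosome 2, 168476410 to 168601657) was low in both mouse lines, with 2.14 FPKM in EL4 (1.99 to 2.30) and 1.53 FPKM in IVA12 (1.39 to 1.69), a ratio of 1.40 (1.24 to 1.58).

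NFATC2 has 2 start sites in RefSeq, and both windows are shown because this gene had the largest difference among the human NFAT members. The outer window (GRCh38.p14, minus strand, chr20:51562790-51563089) held 3 NFAT cores, in capitals, a number that 9.94% of all windows reach, and the inner window (chr20:51542670-51542969) held 0.
NFATC2 outer start: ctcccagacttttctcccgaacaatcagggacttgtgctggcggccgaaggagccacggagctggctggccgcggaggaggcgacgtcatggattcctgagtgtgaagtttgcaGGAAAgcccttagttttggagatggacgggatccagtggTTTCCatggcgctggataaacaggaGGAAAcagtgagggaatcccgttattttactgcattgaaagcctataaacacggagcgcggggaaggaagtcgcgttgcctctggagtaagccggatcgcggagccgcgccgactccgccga
NFATC2 inner start: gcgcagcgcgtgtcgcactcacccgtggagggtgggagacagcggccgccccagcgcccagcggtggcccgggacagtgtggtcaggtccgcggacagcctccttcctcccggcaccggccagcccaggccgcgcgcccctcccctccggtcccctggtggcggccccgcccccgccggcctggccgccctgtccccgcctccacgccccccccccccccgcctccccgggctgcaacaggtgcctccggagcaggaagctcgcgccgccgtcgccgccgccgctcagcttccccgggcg
Over the 6 members with an entry, ITPR1, NFATC1, NFATC2, NFATC3, RCAN1 and STIM1, 10 of 16 windows held a core, or 62.5%, against 61.2% of all windows. NFATC1 had 1 core in each of its 2 windows, and the single NFATC3 window had 0.

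NFATC3, the form most abundant in the thymus (ENSG00000072736, hg19 chromosome 16, 68118654 to 68263162), stood at 20.5 FPKM in Jurkat (20.0 to 21.0) and at 40.0 FPKM in TALL104 (39.2 to 40.8). The ratio of TALL104 over Jurkat was 1.95 (1.89 to 2.01), with a log2 ratio of -0.93. Other annotated genes, among them overlapping ones on the same strand, held 15.8% of its 100-base windows. Nfatc3 (ENSMUSG00000031902, mm10 chromosome 8, 106058840 to 106130537) stood at 27.4 FPKM in EL4 (26.7 to 28.2) and at 29.2 FPKM in IVA12 (28.3 to 30.0), a ratio of IVA12 over EL4 of 1.06 (1.02 to 1.11). It was the highest member in both mouse lines, though in EL4 its interval overlapped with that of Ppp3ca.

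NFATC3 was the largest part of the NFATC1 to NFATC3 sum in each library. Its share was lowest in TALL104, at 53.6% (52.9% to 54.4%), followed by 64.7% in Jurkat (63.7% to 65.7%), and was 87.2% in IVA12 (86.4% to 88.0%) and 91.2% in EL4 (90.7% to 91.8%). NFATC2 held 19.9% in Jurkat (19.1% to 20.7%) and 40.5% in TALL104 (39.8% to 41.2%), but 7.12% in EL4 and 4.58% in IVA12. NFATC1 had its largest share in Jurkat, 15.4% (14.6% to 16.2%), and its smallest in EL4, 1.64% (1.35% to 1.94%). The second NFAT form was thus NFATC2 in Jurkat, TALL104 and EL4, and Nfatc1 in IVA12, where it held 8.21% (7.53% to 8.90%). The sum was 74.6 FPKM in TALL104, and 31.7, 30.1 and 33.4 FPKM in Jurkat, EL4 and IVA12.

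A pair of relatives of these factors were read beside them. NFATC4, the remaining calcium-regulated form, had 0.889 FPKM in Jurkat and 0.00836 FPKM in TALL104, from 261 and 2 recovered reads, and Nfatc4 was at 0.0232 FPKM in EL4 and at 0 reads in IVA12. NFAT5, which responds to osmotic stress and lacks the calcineurin docking region, had 3.80 FPKM in Jurkat and 10.4 FPKM in TALL104, and Nfat5 had 6.05 FPKM in EL4 against 3.14 FPKM in IVA12. It differed by 2.73-fold toward TALL104 and by 1.93-fold toward EL4.

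The wider pathway was described with 4 lists of 51 genes in all per species. Between Jurkat and TALL104, 32 of the 51 differed by more than 1.5-fold, 21 toward TALL104 and 11 toward Jurkat. That is 62.7%, against 25.3% of all human genes. Of the 38 with a mean of at least 1 FPKM, 28 passed, or 73.7%, against 61.0% of all human genes under that filter. Between EL4 and IVA12, 21 of 51 did, 17 toward EL4 and 4 toward IVA12, or 41.2%, against 21.0% of all mouse genes. Of the 34 with a mean of at least 1 FPKM, 19 passed, or 55.9%, against 48.3%. The lists hold genes picked for their role, with earlier results of these data known, and their counts are a description of these libraries.

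The list of calcium store release and entry, 15 genes of the phospholipases, IP3 receptors, sensors, channels and pumps, had 12 genes past 1.5-fold in the human pair, 9 toward TALL104 and 3 toward Jurkat. All 15 had a mean of at least 1 FPKM, so that 80% passed beside 61.0% of the genes under that filter, of which 27.7% passed toward TALL104 and 33.3% toward Jurkat. The median log2 ratio of the list was -0.83, against 0.10 over those genes. Beside ORAI3, PLCG2, a phospholipase C best known from B cells and natural killer cells, had the largest ratio, with 3.02 FPKM in Jurkat and 14.5 FPKM in TALL104, though other annotated genes held 21.1% of its 100-base windows. Among the genes toward Jurkat were ATP2A2, the pump that refills the store, and MCU, the mitochondrial calcium channel. ATP2A2 had 28.9 and 16.6 FPKM in Jurkat and TALL104, and MCU had 7.58 and 3.37 FPKM. Both were named after their values were seen.

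In the mouse pair the same list had 10 genes past 1.5-fold, 7 toward EL4 and 3 toward IVA12, and a median log2 ratio of 0.51. Of its 14 genes with a mean of at least 1 FPKM, 9 passed, or 64.3%, beside 48.3% of the mouse genes under that filter, and the median over those was -0.03. Itpr2 had the largest ratio, 9.27 (8.55 to 10.1), and Stim2 the next, 4.76 (4.32 to 5.25). The human counterparts of both were higher in TALL104.

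Among the 11 calcineurin partners and inhibitors, 5 human genes passed 1.5-fold, 3 toward Jurkat and 2 toward TALL104, with a median log2 ratio of 0.23. These were 5 of the 9 with a mean of at least 1 FPKM, or 55.6%, beside 61.0% of all genes under that filter. RCAN3, given above, was among those toward TALL104. The 3 toward Jurkat, named after their values were seen, were CALM3, FKBP1A and PPIA. FKBP1A and PPIA encode the binding proteins through which tacrolimus and ciclosporin inhibit calcineurin, and had 192 and 269 FPKM in Jurkat against 54.8 and 121 FPKM in TALL104. CALM3, a calmodulin gene, had 102 FPKM in Jurkat and 53.1 FPKM in TALL104.

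In the mouse pair 4 of the 11 passed, 3 toward EL4 and 1 toward IVA12, with a median log2 ratio of -0.02. Of the 8 with a mean of at least 1 FPKM 3 passed, or 37.5%, beside 48.3%. Calm3 had 161 FPKM in EL4 against 75.8 FPKM in IVA12. Rcan2, the single gene toward IVA12, was listed at 0 FPKM in EL4 and at 1.37 FPKM in IVA12 (0.446 to 3.20). The latter rests on 5 recovered reads at a recovered length of 144 bases, against 4372 annotated exon bases, so these reads too may be a lower bound.

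Among the 9 NFAT relatives and kinases, 7 human genes passed 1.5-fold, 5 toward Jurkat and 2 toward TALL104, and 6 of the 8 with a mean of at least 1 FPKM did, or 75%, beside 61.0%. DYRK2, a kinase that phosphorylates NFAT, had 5.01 FPKM in Jurkat and 38.0 FPKM in TALL104, a ratio of 7.60 (7.21 to 8.01), and HOMER3, an NFAT-binding scaffold, had 2.78 and 0.0619 FPKM. In the mouse lines 3 of 9 passed, each toward EL4, and these were 3 of the 7 with a mean of at least 1 FPKM, or 42.9%, beside 48.3%. Dyrk2 had 12.3 FPKM in EL4 against 5.76 FPKM in IVA12, and Csnk1a1, a casein kinase that keeps NFAT in the cytoplasm, had 46.1 and 25.7 FPKM.

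The 16 NFAT target genes were mostly low. Those at 1 FPKM or more numbered 3 for Jurkat, 7 for TALL104, 5 for EL4 and 2 for IVA12. IL2, the textbook NFAT target, had 2 reads in Jurkat and 0 in TALL104, and Il2 had 1 read in EL4 and 0 in IVA12. In the human pair 8 of the 16 passed 1.5-fold, or 50%, beside 25.3% of all human genes in either direction. Each of the 8 lay toward TALL104, where 11.4% of all human genes passed. Of the 6 with a mean of at least 1 FPKM 5 passed, beside 61.0% of the genes under that filter in either direction and 27.7% toward TALL104. However, TNF, FASLG and EGR2 were below 1 FPKM in Jurkat and met the filter only through TALL104. The filter thus fixed their direction, and nothing is drawn from this count. TNF stood at 0.103 FPKM in Jurkat (0.0212 to 0.301, from 3 recovered reads) and at 49.5 FPKM in TALL104 (46.7 to 52.4), a ratio of 481 (164 to 2336). Its recovered length was 838 bases against 1678 annotated exon bases, so its reads may be a lower bound and these intervals too wide. FASLG, the ligand of the death receptor Fas, had 0.122 FPKM in Jurkat and 35.6 FPKM in TALL104, a ratio of 293 (148 to 679).

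In the mouse pair 4 of the 16 targets passed 1.5-fold, or 25%, beside 21.0% of all mouse genes in either direction. Each of the 4 lay toward EL4, where 9.75% of all mouse genes passed. All 4 were among the 5 with a mean of at least 1 FPKM, beside 48.3% of the genes under that filter in either direction and 23.2% toward EL4. However, Pdcd1, Tox and Nr4a1 were below 1 FPKM in IVA12 and met the filter only through EL4. The filter thus fixed their direction, and nothing is drawn from this count. Pdcd1, which encodes the inhibitory receptor PD-1, stood at 116 FPKM in EL4 (113 to 118) and at 0.184 FPKM in IVA12 (0.0843 to 0.350), a ratio of 627 (329.9 to 1371). Tox, a nuclear factor of exhausted T cells, had 23.1 FPKM in EL4 against 0.0156 FPKM in IVA12, from 3 recovered reads. The human counterpart TOX had 41.0 FPKM in Jurkat and 34.6 FPKM in TALL104, and PDCD1 had 0.272 FPKM in Jurkat and 0 reads in TALL104. The highest and next highest targets were Pdcd1 and Tox in EL4, CD40LG and TNF in TALL104, and TOX and CD40LG in Jurkat. These sets overlapped in part. TOX or Tox was in those of Jurkat and EL4, and CD40LG, with 36.7 FPKM in Jurkat and 106 FPKM in TALL104, was in those of both human lines.

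**Figure D4:**
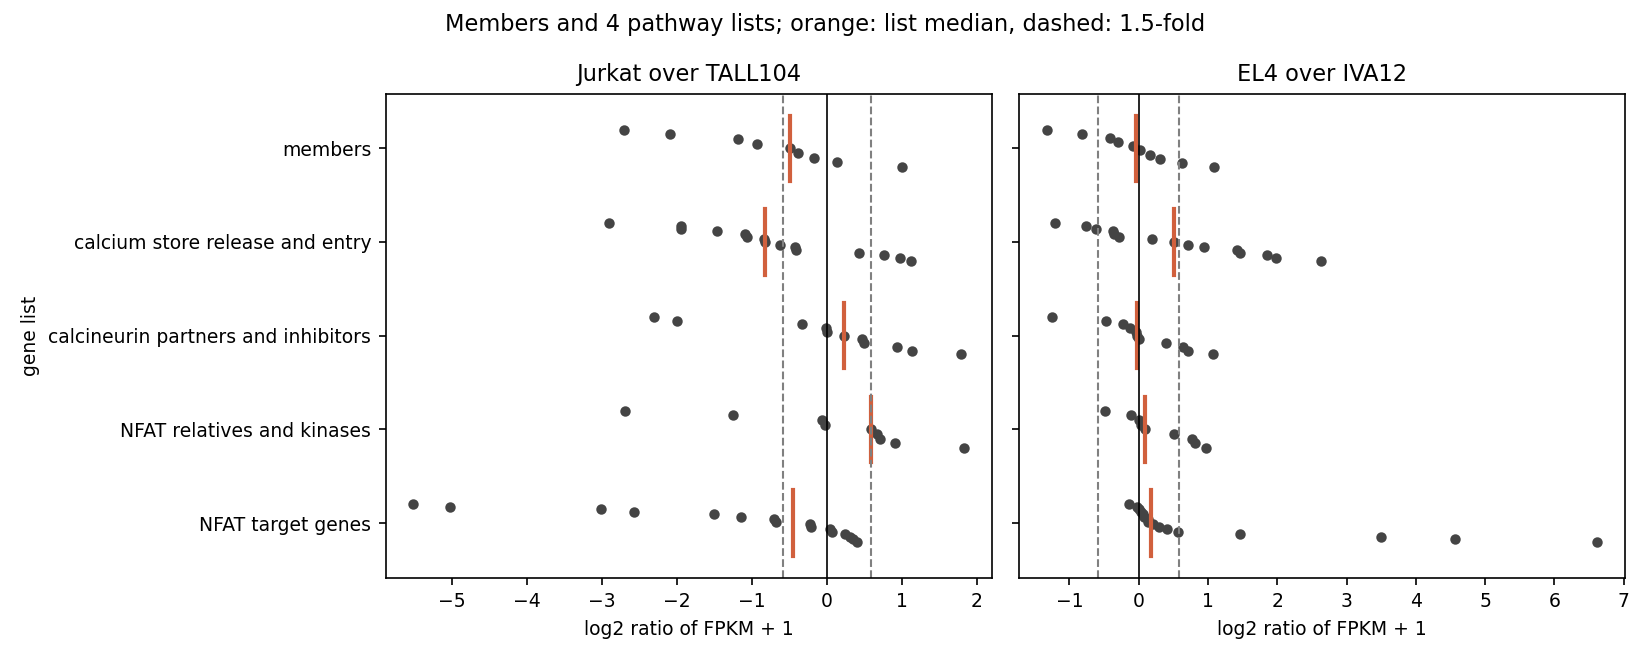
The log2 ratio of FPKM + 1 of each gene in the member list and the 4 pathway lists, Jurkat over TALL104 (left) and EL4 over IVA12 (right), 1 library per line. Each point is a gene, orange bars are list medians and dashed lines mark 1.5-fold. The NFAT target genes reach furthest, to -5.52 for TNF in the human pair and 6.62 for Pdcd1 in the mouse pair.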

How the data were processed

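Paired-end libraries of stranded mRNA were sequenced from 4 cell lines, 1 library each. Per the study's methods and the submitters' processing notes, the authors aligned the reads with STAR 2.5.1b to a combined hg19 and mm10 reference, counted them per gene with featureCounts 1.6.3 and deposited FPKM values. Neither the strand setting nor the gene lengths nor the treatment of multiply aligned reads is given in the sources used here, so reads from overlapping or antisense genes could not be told apart. Human and mouse genes share 1 library total.

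Each library's total was the whole number that genes gave most often when their FPKM and annotated exon length were taken as 1 read. With these totals, each gene's reads were recovered as the whole numbers that fit all 4 values within a relative tolerance of 1e-12, and 0 values failed. The recovered gene lengths equalled the annotated exon length for 3 human and 3 mouse members. Identifiers were paired with symbols through the GENCODE annotations of both species (31182 human and 27645 mouse genes matched). Levels carry exact Poisson intervals and ratios exact conditional binomial ones, both at 95%. Differences are log2 ratios of FPKM with a pseudocount of 1, which understates changes of low genes, and a gene was called past 1.5-fold. The recovery was tested on data simulated with the annotated exon lengths, so that test did not cover genes whose recovered length differs from the annotation.

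The members and lists were chosen with earlier results of these data known. Named are the members, their close relatives with PPP3R1, and the 2 genes of each pathway list that differed most on the log2 scale in each pair. Some genes of the pathway and marker lists are counted in the lists but not reported here by name. Alternatives were pseudocounts of 0.1 and 0.01, 2 other scalings (to own-species totals, and by the median ratio of genes detected in both lines), a mean filter of 1 FPKM, a 2-fold threshold, shares of recovered reads, and detection at 0.1 or 5 FPKM. Sequences of the promoter windows are from RefSeq (GRCh38.p14), and windows of 6 of the 10 human members were used, with those on chromosome 8 left out. Transcript windows of 100 bases were compared between all annotated genes of both species. The annotations used for this are not the Ensembl releases that the study names. Some genes that share windows, such as those of RCAN1, PLCG2 and ORAI3, may thus have been absent from the authors' counting. Python 3.11.15, NumPy 2.4.6, pandas 2.3.3, SciPy 1.17.1 and matplotlib 3.10.9 were used.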

Additional observations from a re-analysis of the deposited data

Results flagged for a closer look

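Reads assigned to the members' genes of the other species lay outside the comparisons and exceeded the 3 reads that a count of 0 allows. The Jurkat library had 13 such reads (interval 6.92 to 22.2) on 4 of the 10 mouse members, and the TALL104 library had 13 (6.92 to 22.2) on 5. The EL4 library had 21 reads (13.0 to 32.1) on 5 of the 9 human members, and the IVA12 library had 31 (21.1 to 44.002) on all 9. The highest values were 0.0239 FPKM for Ppp3cb in Jurkat, 0.0293 FPKM for Nfatc3 in TALL104, and 0.0587 and 0.0597 FPKM for PPP3CB in EL4 and IVA12. Of all own- and other-species reads, 0.212% in IVA12 and 0.0376% to 0.0497% in the other libraries fell on the other species, and PPP3CB and Ppp3cb transcripts share 142 windows of 100 bases. The part of either in these reads was not tested.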

How the results depend on the processing

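No paired analysis was possible because each line has 1 library, and no library could be left out for the same reason. With a 2-fold threshold the members past it in the mouse pair fell to 2, and the pathway genes to 20 between the human lines and 12 between the mouse lines. With a pseudocount of 0.01, 34 mouse pathway genes passed 1.5-fold. The only member to change sides of 1.5-fold under the other pseudocounts and scalings was PPP3CC, which passed under median-ratio scaling. Taken from recovered reads without division by length, the share of PPP3CC among the catalytic chains was 24.9% for Jurkat, 17.5% for TALL104, 2.26% for EL4 and 6.14% for IVA12, and that of NFATC2 among NFATC1 to NFATC3 was 39.5% in TALL104, 11.8% in EL4 and 7.65% in IVA12. These shares also fall short where a gene's reads are a lower bound, and are too high where those of another gene of the family are. At 5 FPKM, 5 members were detected in EL4 and 6 in IVA12. Of the 35 log2 ratios of single genes, 21 moved by more than their counting error with a pseudocount of 0.01, 18 with 0.1, 10 with median-ratio scaling and 0 with own-species totals. Without replicates, no difference could be set against the spread between cultures.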
